A study of Mus musculus with 2 samples.

Results

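Semaphorins, plexins and neuropilins are a ligand and receptor family, described here in sorted small peritoneal macrophages, cells of the abdominal cavity, from mice with endotoxemia. The 10 genes are the semaphorins Sema4a, Sema4d and Sema6d, the plexins Plxna1, Plxna4, Plxnb2, Plxnc1 and Plxnd1, and the neuropilins Nrp1 and Nrp2. They were chosen by name, with their counts in these same libraries already known, from 31 mouse genes of the family and 55487 gene IDs in all. Their counts and ratios are therefore a description and carry no test.

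All mice were 5-week-old males of the outbred SWISS stock and were injected with 20 mg/kg lipopolysaccharide (LPS) from Escherichia coli O55:B5 into the peritoneum. Every mouse also had 30 mL/kg saline under the skin at 6 h, and cells were collected 22 h after LPS. The LPS group had no further agent, and the LPS+LCC-12 group had 0.3 mg/kg LCC-12, a small molecule known to act on copper in mitochondria, into the peritoneum 6 h after LPS. Each group was 1 library from pooled sorted cells, 102283 cells of 7 mice for LPS and 66967 cells of 8 mice for LPS+LCC-12, so differences between mice were not measured. No mice without LPS were analysed here.

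Semaphorins are secreted or membrane-bound ligands that act through plexins, large receptors whose cytoplasmic part holds a GTPase-activating domain for small Ras-like proteins. Neuropilins have a short cytoplasmic tail, hold the secreted class 3 semaphorins for A-type plexins, and also bind vascular endothelial growth factors. The family is best known from axon guidance and vessel growth, and in macrophages it is known to act on migration, adhesion and contact with T cells.

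The libraries held 50618409 counts (LPS) and 47721888 counts (LPS+LCC-12), and 13482 genes could be read, that is, they had 50 or more counts in at least 1 library. The macrophage and monocyte genes Adgre1, Csf1r and Ccr2 had at least 17434 counts in each library. Gata6, a factor that defines large peritoneal macrophages and that small ones are known to lack, was also present with 529 and 720 counts. Neutrophil genes were abundant: the summed level of 15 neutrophil markers was 13916 CPM, counts scaled to library size, with LPS and 5510 with LPS+LCC-12. In the same direction, 12 monocyte markers summed to 6088 and 3813 CPM and 10 mast cell markers to 215 and 69.4 CPM. Of the mast cell sums, Hdc alone held 197 and 62.3 CPM, and the other 9 genes 17.4 and 7.07. Markers of mesothelium, the lining of the cavity, and of fibroblasts were low and went the same way, with sums of 7.81 and 1.36 CPM over 8 genes and of 24.6 and 5.17 CPM over 8. The median log2 ratios of the 4 mesothelium and 6 fibroblast markers read were -3.40 and -2.39. Of these, 4 and 4 reached 50 counts only in the LPS library, and such a minimum favours ratios below 0. The fibroblast gene Col6a3 had 490 and 2 counts. In the other direction, 15 genes that mark small peritoneal or monocyte-derived macrophages summed to 1055 and 1933 CPM. The 20 markers of large peritoneal macrophages summed to 9052 and 16876 CPM, of which the fibronectin gene Fn1 held 3114 and 10656. The other 19 summed to 5938 and 6220, of which Saa3 alone held 4874 and 4360. The median log2 ratio of the 20 was 0.84, and 4 were below 0. None was at least 2-fold lower and 10 at least 2-fold higher, beside 6.65% and 4.01% of all genes read. Cd5l (466 and 10022 counts) and Timd4 (318 and 5056) had the largest ratios of the 20. The sums of general macrophage, B cell and dendritic cell markers differed by less than 1.5-fold. Those of T and NK cells were 10.7 and 7.22 CPM. Platelet markers summed to 69.7 and 145 CPM, of which Pf4 held 53.9 and 139. The 7 other platelet markers went the other way in sum, with 15.8 and 6.72 CPM. The median log2 ratio of the 4 platelet markers read was -0.93. All differences below are between these libraries, and the part that a different mix of cells has in them was not tested. In pooled RNA, fewer cells of a type and less RNA per cell cannot be told apart. The marker lists were chosen with earlier results of these data known, so their sums and counts carry no test.

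Of the 10 genes, Plxna4, Plxnd1 and Nrp1 were at least 2-fold higher, Plxnc1 was at least 2-fold lower, and 6 differed by less. Of all genes read, 4.01% were at least 2-fold higher and 6.65% at least 2-fold lower. Among protein-coding genes these shares were 3.81% and 4.46%. By sign alone, 6 of the 7 plexins and neuropilins had log2 ratios above 0 and the 3 semaphorins below 0, Sema6d within counting error. Above 0 were 55.7% of protein-coding genes and 52.4% of all genes read. The median log2 ratio of the 10 genes was 0.39, beside 0.02 over all such genes and 0.05 over protein-coding genes. It was 0.13 over the 19 family genes read and -0.09 over the 9 of them that were not listed. All 10 passed the minimum of 50 counts, Plxna4 only through the LPS+LCC-12 library. Log2 ratios set the LPS+LCC-12 library against the LPS library after TMM scaling, so that values above 0 mean more with LCC-12, and the interval in brackets is an exact 95% interval of the split of the counts, covering counting error only.

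**Figure D1:**
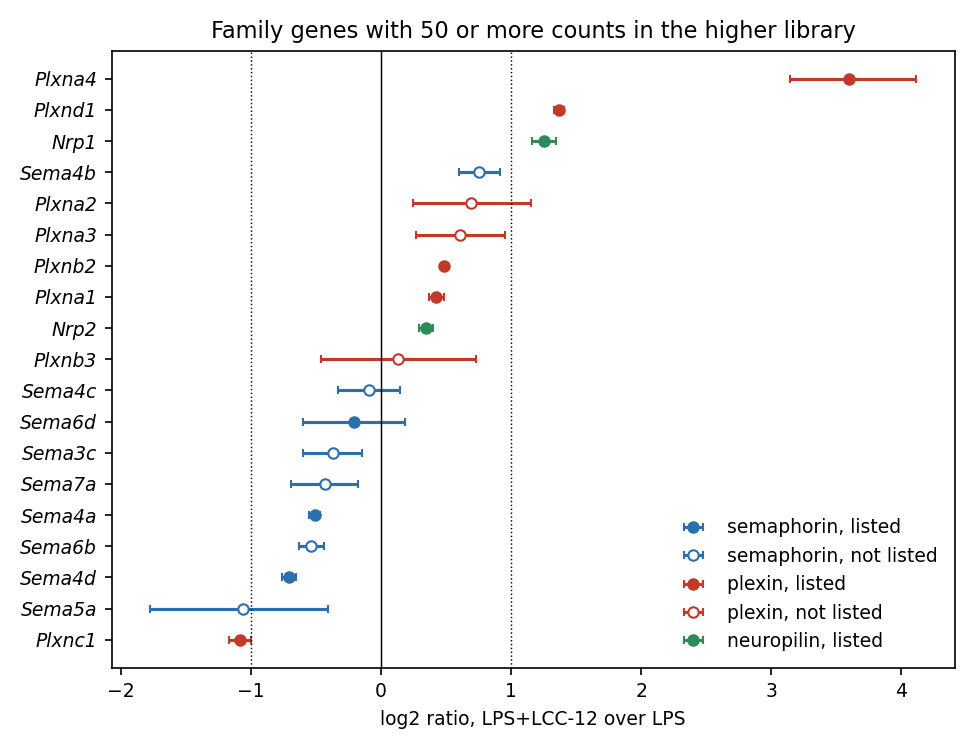
Log2 ratios (x axis, LPS+LCC-12 to LPS) of the 19 family genes read. Points are ratios, bars are exact 95% counting intervals, filled points are the 10 listed genes and dotted lines mark a 2-fold difference. Plxna4, Plxnd1 and Nrp1 lie right of the upper line with their whole intervals, and the interval of Plxnc1 reaches the lower line.

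None of the 3 listed semaphorins differed by 2-fold, and Sema4a and Sema4d had ratios below 0 by more than counting error. Sema4a, a membrane-bound ligand known to bind plexin-D1 and B-type plexins, had 10916 counts with LPS alone and 7428 with LPS+LCC-12. It was 1.42-fold lower, a log2 ratio of -0.51 (-0.55 to -0.47). Sema4d, also called CD100, is a ligand of B-type plexins that can be shed from the surface and that also binds CD72. It had 7945 and 4710 counts and was 1.63-fold lower, a log2 ratio of -0.71 (-0.76 to -0.66). Sema6d, a membrane-bound ligand of plexin-A1, had 123 and 103 counts, with a log2 ratio of -0.21 (-0.60 to 0.18). A difference for Sema6d was not detectable at this depth. In rank, 10.8% of all genes read had a lower ratio than Sema4d and 15.4% a lower ratio than Sema4a.

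Sema4a and Sema4d made up most semaphorin counts in both libraries. Sema4a held 47.9% of the counts of all 20 semaphorin genes with LPS (exact binomial 95% interval 47.2 to 48.5) and 48.2% with LPS+LCC-12 (47.4 to 49.0), intervals that overlap. Sema4d held 34.8% (34.2 to 35.5) and 30.5% (29.8 to 31.3), so the 2 ligands did not differ by the same factor. The ratio of Sema4a to Sema4d counts, into which no scaling enters, was 1.15 times as high with LCC-12 (exact conditional interval 1.10 to 1.20). Sema6d held under 1% in each library.

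The 5 listed plexins ranged from -1.09 to 3.60 in log2 ratio. Plxnd1, the receptor of Sema3E and a receptor of Sema4A, had 7176 counts with LPS alone and 17953 with LPS+LCC-12. It was 2.58-fold higher, with a log2 ratio of 1.37 (1.33 to 1.41), and ranked 282nd from the highest of 13482 genes. Plxna4, a plexin for class 6 semaphorins and, with neuropilin-1, for Sema3A, had 40 and 474 counts. It was 12.1-fold higher, a log2 ratio of 3.60 (3.15 to 4.12), 19th from the highest. Plxna4 was thus the listed gene with the largest ratio and, with LPS, the one with the fewest counts.

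Plxnb2 and Plxna1 were higher by less than 2-fold. Plxnb2, a receptor of class 4 semaphorins, had 23230 and 31412 counts and was 1.40-fold higher, a log2 ratio of 0.48 (0.46 to 0.51). Plxna1, a receptor known to bind Sema6D and to associate with Trem2 and its adaptor Tyrobp in myeloid cells, had 3991 and 5186 counts and was 1.34-fold higher, a log2 ratio of 0.42 (0.36 to 0.48). Both ratios were larger than counting error, and 84.9% and 87.4% of all genes read lay below Plxna1 and Plxnb2.

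Plxnc1, the receptor of the membrane-anchored Sema7A, was the listed plexin with fewer counts in the LPS+LCC-12 library. It had 3370 counts with LPS alone and 1538 with LPS+LCC-12, which is 2.12-fold lower or -1.09 in log2. Its interval, -1.17 to -0.998, reaches the 2-fold limit, and 5.85% of genes had a lower ratio. Its ligand gene Sema7a, which is not among the 10, had 301 and 216 counts (log2 ratio -0.43, -0.69 to -0.18). Of the 13 neutrophil markers read, 9 were at least 2-fold lower, beside 6.65% of all genes read, and the median of the 13 was -1.22. Elane was at 0 with LPS among the 15. Plxnc1 moved in the same direction as these markers. So did the markers read of monocytes, mast cells, mesothelium and fibroblasts. Of these, 5 of 11, 5 of 7, 4 of 4 and 4 of 6 were at least 2-fold lower. Small and large peritoneal macrophage markers went the other way, with medians of 1.75 and 0.84. The part of any of these markers' cells in the Plxnc1 ratio was not tested.

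Within the plexins, the share of Plxnd1 was larger and that of Plxnc1 smaller with LCC-12. Plxnd1 held 18.9% of the counts of all 9 plexin genes with LPS (18.5 to 19.3) and 31.5% with LPS+LCC-12 (31.2 to 31.9). Plxnc1 held 8.86% (8.57 to 9.15) and 2.70% (2.57 to 2.84). There were 2.13 Plxnd1 counts per Plxnc1 count with LPS and 11.7 with LPS+LCC-12, and this ratio was 5.48 times as high (5.13 to 5.86). Plxnb2 stayed the most counted plexin, with 61.1% (60.6 to 61.5) and 55.2% (54.8 to 55.6). Plxna1 held 10.5% (10.2 to 10.8) and 9.11% (8.88 to 9.35), and Plxna4 0.11% (0.075 to 0.14) and 0.83% (0.76 to 0.91).

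**Figure D2:**
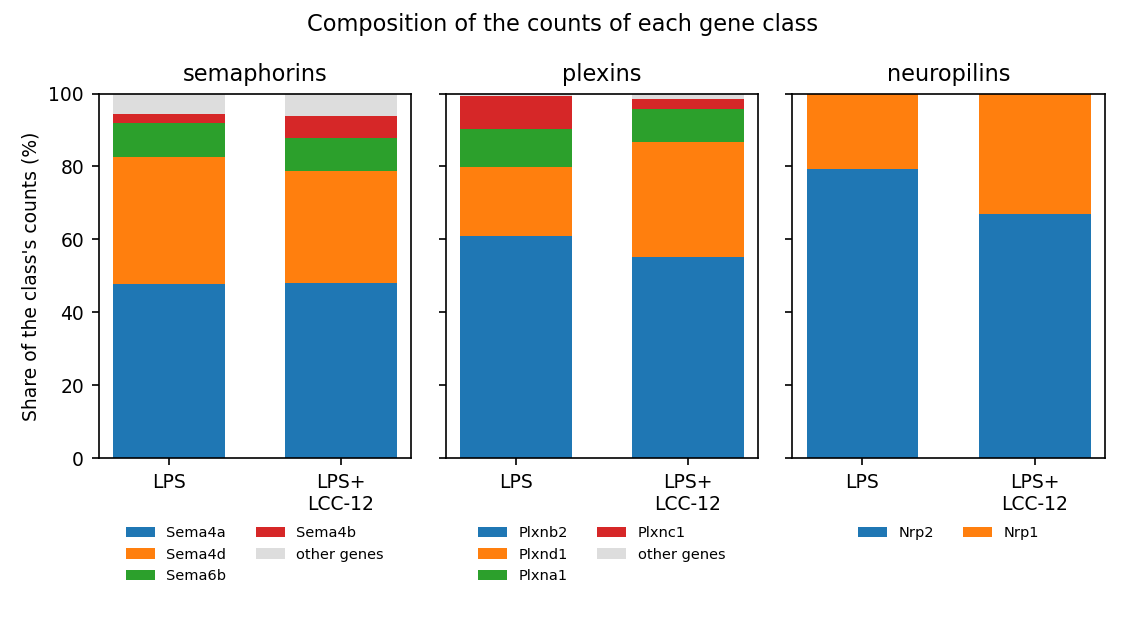
Share of the counts of each class (y axis, percent) held by its genes in the LPS and the LPS+LCC-12 library, for 20 semaphorin, 9 plexin and 2 neuropilin genes; genes under 2% in both libraries are grouped as other genes. Plxnd1 takes a larger part of the plexin bar with LCC-12 (31.5% beside 18.9%), Plxnc1 a smaller one (2.70% beside 8.86%), and Nrp1 a larger part of the neuropilin bar (33.0% beside 20.8%).

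Both neuropilins were higher with LCC-12, Nrp1 by more than Nrp2. Nrp1, the co-receptor of Sema3A and of the growth factor VEGF-A, had 1339 and 3093 counts. It was 2.38-fold higher, a log2 ratio of 1.25 (1.16 to 1.35), and 97.5% of genes had a lower ratio. Nrp2, the co-receptor of Sema3F and of VEGF-C, had 5099 and 6286 counts and was 1.27-fold higher, a log2 ratio of 0.35 (0.29 to 0.40). Nrp1 held 20.8% of neuropilin counts with LPS (19.8 to 21.8) and 33.0% with LPS+LCC-12 (32.0 to 33.9). The ratio of Nrp1 to Nrp2 counts was 1.87 times as high (1.74 to 2.02), and Nrp2 still had more counts in both libraries.

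Plexin-D1 and neuropilin-1 are also known from the vessel wall, and the endothelial markers were low. Leaving out Pecam1, which leukocytes also express, the other 9 of 10 endothelial markers had at most 36 counts with LPS alone and 62 with LPS+LCC-12. Cldn5 was at 0 in both libraries, and Tek and Emcn were at 0 with LPS. These 9 summed to 2.38 CPM with LPS and 2.85 with LPS+LCC-12, and Pecam1 had 127 and 59.3 CPM. Cdh5, the cadherin of endothelial junctions, had 33 and 62 counts (log2 ratio 0.95, 0.32 to 1.61), in the direction of Plxnd1 and Nrp1, and Vwf had 36 and 16 (-1.10, -2.07 to -0.24). In the direction of Plxnd1, Plxna4 and Nrp1, 12 of 15 genes that mark small peritoneal or monocyte-derived macrophages were at least 2-fold higher. Of large peritoneal macrophage markers, 10 of 20 were, beside 4.01% of all genes read. No marker of either list was at 0, and 0 of 11 general macrophage markers were at least 2-fold higher. All marker lists were chosen with earlier results of these data known, so these counts are a description and carry no test. The part of these markers' cells in the 3 ratios was not tested.

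As whole classes, the summed counts of 9 plexins were 1.54-fold higher with LCC-12, from 762 to 1177 CPM (log2 ratio 0.63, 0.61 to 0.65). The 2 neuropilins were 1.5-fold higher, from 129 to 194 CPM (log2 ratio 0.59, 0.54 to 0.63). The 20 semaphorins went the other way, from 457 to 319 CPM (log2 ratio -0.52, -0.55 to -0.49). Count ratios of a receptor and a ligand it is known to bind were taken for 4 pairs, of which 3 were higher and 1 lower with LCC-12. Each follows from the ratios given for its 2 genes and is no separate evidence. Plxnb2 over Sema4d was 2.28 times as high with LCC-12 (2.19 to 2.37). Plxnd1 over Sema4a was 3.68 times as high (3.53 to 3.83), with 0.66 Plxnd1 counts per Sema4a count with LPS and 2.42 with LPS+LCC-12. Plxna1 over Sema6d was 1.55 times as high (1.18 to 2.04). Plxnc1 over Sema7a went the other way, at 0.64 times its value with LPS (0.53 to 0.77). These are counts of transcripts in pooled cells, and protein was not measured.

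Levels between genes were set per length, as TMM-scaled CPM per kilobase (kb) of annotated exon. With LPS the order was Plxnb2 (60.3), Sema4a (40.4), Sema4d (20.7), Plxnd1 (19.7), Plxna1 (8.83), Nrp2 (8.62), Plxnc1 (8.08), Nrp1 (2.74), Sema6d (0.23) and Plxna4 (0.057). In that order the counting intervals of Plxna1 and Nrp2 overlapped, and those of the other neighbours did not. With LPS+LCC-12 the order was Plxnb2 (84.1), Plxnd1 (50.8), Sema4a (28.4), Sema4d (12.7), Plxna1 (11.8), Nrp2 (11.0), Nrp1 (6.54), Plxnc1 (3.81), Plxna4 (0.69) and Sema6d (0.20), with no overlap between neighbours. Plxnd1 moved above Sema4a and Sema4d, and Nrp1 above Plxnc1. The length counts every annotated exon, also those of rare transcripts, so levels of genes with long exons (Plxna4, 14103 bases) may be lowered. Against protein-coding genes read, Plxnb2 lay above 94.6% with LPS and 96.6% with LPS+LCC-12, and Plxnd1 above 81.7% and 93.8%.

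**Figure D3:**
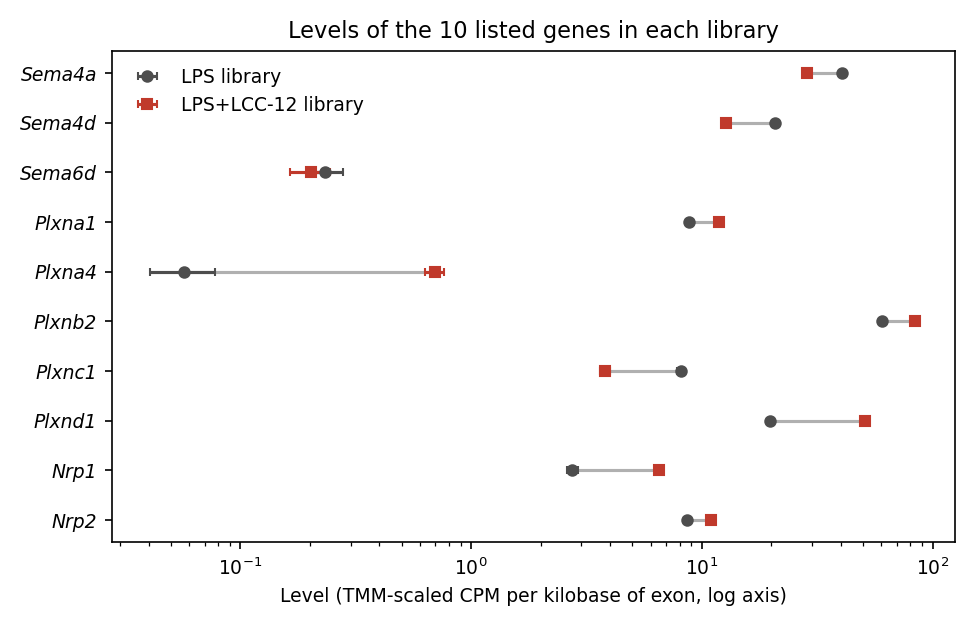
Levels of the 10 listed genes in the LPS library (circles) and the LPS+LCC-12 library (squares), as TMM-scaled CPM per kb of exon on a log axis, with exact 95% Poisson intervals of the counts. Plxna4 spans the longest line, from 0.057 to 0.69, and the 3 semaphorins and Plxnc1 have their squares left of their circles.

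By position, Plxnd1 (115954811 to 115995005), Plxna1 (89316314 to 89362620) and Plxna4 (32144268 to 32588192) all lie on chromosome 6 of GRCm38, on the minus strand. Nrp1 spans 128358604 to 128503363 on chromosome 8, and Plxnc1 94790866 to 94944835 on chromosome 10. The antisense gene Plxna4os1 lies within the span of Plxna4 and shares no exon base with it. It had 66 and 229 counts and was 3.56-fold higher (chosen after its values were seen), and the Plxna4 to Plxna4os1 ratio was 3.41 times as high with LCC-12 (2.19 to 5.36). The antisense gene Gm26811 shares 970 exon bases with Plxna1 and had 23 and 27 counts. Whether the counting used strand is not given in the sources used here, so reads of such pairs could be shared.

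The RefSeq table of start sites held promoter windows for 8 of the 10 genes; Plxna1 and Plxna4 had none there. The 250 bases before the start are shown for the 3 genes past the 2-fold limit that have a window, Plxnd1 and Nrp1 (higher) and Plxnc1 (lower), so that their letters can be set side by side. Plxnd1 is at chr6:115995006-115995255 (minus strand), Nrp1 at chr8:128358823-128359072 (plus strand) and Plxnc1 at chr10:94944846-94945095 (minus strand), GRCm38.p6. Each is written 5′ to 3′, and capitals mark matches on either strand to AANNGAAA (a core bound by interferon regulatory factors), GAGGAA (a core bound by PU.1, the ETS factor of macrophages), TGANTCA (AP-1), GGGCGG (Sp1) or TATAAA (the box that binds TBP).
Plxnd1: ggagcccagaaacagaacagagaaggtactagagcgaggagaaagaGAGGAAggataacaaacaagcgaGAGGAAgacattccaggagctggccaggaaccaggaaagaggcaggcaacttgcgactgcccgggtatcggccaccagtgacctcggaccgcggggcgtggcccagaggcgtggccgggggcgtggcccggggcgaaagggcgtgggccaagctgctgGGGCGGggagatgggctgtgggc
Nrp1: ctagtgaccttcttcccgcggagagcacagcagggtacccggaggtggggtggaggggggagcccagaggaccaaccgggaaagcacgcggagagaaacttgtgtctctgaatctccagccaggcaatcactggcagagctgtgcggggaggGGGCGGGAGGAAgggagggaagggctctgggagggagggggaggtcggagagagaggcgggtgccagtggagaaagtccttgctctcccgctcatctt
Plxnc1: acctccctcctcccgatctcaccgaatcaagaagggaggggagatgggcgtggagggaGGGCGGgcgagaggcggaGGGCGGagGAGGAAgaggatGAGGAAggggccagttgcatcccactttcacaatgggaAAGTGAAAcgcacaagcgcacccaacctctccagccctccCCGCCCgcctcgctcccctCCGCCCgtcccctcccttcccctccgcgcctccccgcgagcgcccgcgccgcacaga

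All 3 windows held GAGGAA and GGGCGG, and none held TGANTCA or TATAAA. Plxnd1 had GAGGAA at -204 and -181, and Nrp1 at -92, counted from the start site with the base before it as -1. Plxnc1 had GAGGAA at -166 and -154, 4 matches to GGGCGG and, alone of the 3, 1 match to AANNGAAA, at -116. Of 32851 RefSeq windows of the same length, 23.3% held GAGGAA, 32.7% GGGCGG, 21.3% AANNGAAA, 6.75% TGANTCA and 12.4% TATAAA. The 3 windows shown were rich in G and C, with 64.8% for Plxnd1, 64.4% for Nrp1 and 68.8% for Plxnc1, beside a median of 52.4% over all RefSeq windows. The 50 bases after the start occur in a GENCODE transcript of Plxnd1 and of Nrp1 but not of Plxnc1, whose start differs between the annotations. No GENCODE exon overlaps any of the 3 windows, and that of Nrp1 lies within the span that GENCODE gives the gene. A match describes letters only, and binding was not measured.

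Of the other 21 genes of the family, 12 had under 50 counts in both libraries, between 0 and 39, among them all class 3 semaphorins but Sema3c. Of the 9 that could be read, none was at least 2-fold higher, and Sema5a was at least 2-fold lower with 61 and 28 counts (log2 ratio -1.06, -1.78 to -0.41). Sema5a passed the minimum only through the LPS library. Sema6b had 2112 and 1410 counts (log2 ratio -0.54, -0.64 to -0.44), and Sema3c, a secreted ligand of neuropilins, 384 and 287 (-0.37, -0.60 to -0.15). Sema4b was the semaphorin above 0, with 555 and 908 counts (log2 ratio 0.76, 0.60 to 0.91), and Sema4c had 304 and 276 (-0.09, -0.33 to 0.15). Plxna2 had 69 and 108 counts, Plxna3 120 and 177, and Plxnb3 48 and 51, with log2 ratios of 0.69, 0.60 and 0.13. By sign alone, 8 of the 9 semaphorins read in the whole family were below 0, beside 47.6% of all genes read and 44.3% of protein-coding ones. Of the 8 plexins 7 were above 0, beside 52.4% of all genes read and 55.7% of protein-coding ones. The intervals of Sema4c, Sema6d and Plxnb3 included 0.

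**Figure D4:**
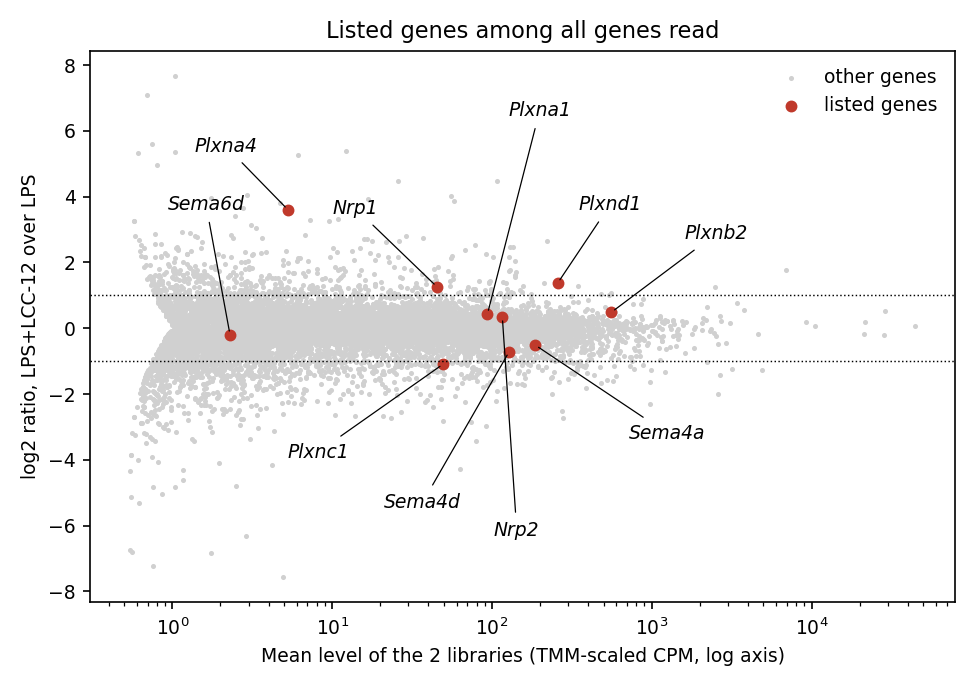
Log2 ratio (y axis, LPS+LCC-12 to LPS) against the mean TMM-scaled CPM of both libraries (x axis, log scale) for the genes read. Red points are the 10 listed genes and dotted lines mark 2-fold. Plxna4 stands high at a low level, and Plxnd1 lies above the 2-fold line among genes of higher level.

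In a list of co-receptors, receptor partners and other receptors, 14 of 18 genes could be read, and their median log2 ratio was -0.15. Of these, 2 were at least 2-fold higher and 2 at least 2-fold lower. Beside this list and those below, the shares over all genes read were 4.01% higher and 6.65% lower. Trem2, the lipid receptor that associates with plexin-A1, had 151 and 334 counts and was 2.28-fold higher, whereas its adaptor Tyrobp had 10861 and 9917 counts (log2 ratio -0.09). Flt1, a VEGF receptor, had 94 and 194 counts and was 2.12-fold higher, and Flt4, the VEGF-C receptor, had 51 and 21 and was 2.32-fold lower. Havcr2, which encodes the immune receptor TIM-3, had 1380 and 627 counts and was 2.13-fold lower. Cd72, the B cell and macrophage receptor of Sema4D, had 934 and 749 counts (log2 ratio -0.27). The VEGF receptor gene Kdr had 11 and 19 counts.

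Among 9 other ligands of neuropilins, 5 could be read, with a median of -0.19. Pdgfb, a growth factor chain reported to bind neuropilin-1, was 2.38-fold higher on 223 and 514 counts, and none was at least 2-fold lower. Vegfa had 1539 and 1305 counts (log2 ratio -0.19, -0.30 to -0.08).

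Of 15 cytoplasmic kinases and effectors, 12 could be read, with 2 at least 2-fold higher, none at least 2-fold lower and a median of 0.17. Both belong to the collapsin response mediator family, which was named for the response to collapsin, an older name of Sema3A. Dpysl3 had 368 and 5202 counts and was 14.6-fold higher, a log2 ratio of 3.87 (3.71 to 4.02), and Dpysl2 had 4185 and 8636 counts and was 2.13-fold higher (1.09, 1.04 to 1.14). The other genes of that family, Crmp1, Dpysl4 and Dpysl5, had at most 3 counts. Of 8 proteases that shed or process semaphorins, 5 could be read and all were within 2-fold, with a median of -0.08. Furin, which cleaves class 3 semaphorins, had 19712 and 13099 counts (log2 ratio -0.54), and the sheddase Adam17 14768 and 13488 (-0.08).

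**Figure D5:**
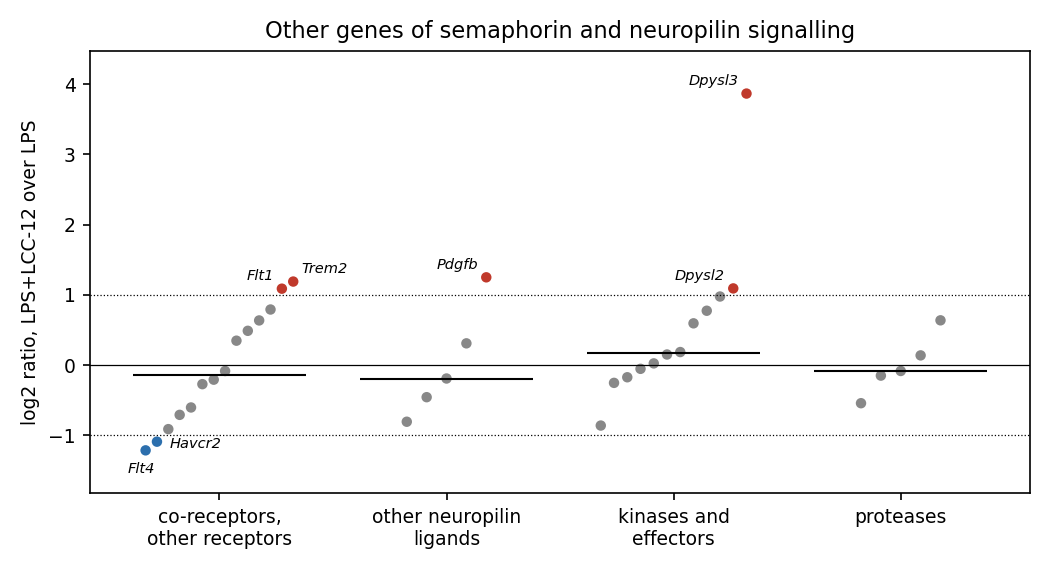
Log2 ratio (y axis, LPS+LCC-12 to LPS) for the genes read in 4 lists. Each point is a gene, horizontal bars are list medians, dotted lines mark 2-fold and named points are past it. Dpysl3 stands apart at 3.87, and the medians of these 4 lists lie between -0.19 and 0.17.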

How the data were processed

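RNA of sorted small peritoneal macrophages was sequenced as 1 pooled library per group; 10 ng of total RNA per library went, per the labels' protocols, through a stranded low-input kit with ribosomal depletion and 12 PCR cycles (their molecule field names polyA RNA). The authors deposited raw counts per gene, whole numbers with no normalization. Per the submitters' processing notes, reads were aligned with STAR, build mm10. How genes were counted, whether by strand and with which annotation is not given in the sources used here. Of 55487 IDs, 55394 matched GENCODE M21 (GRCm38), and the other 93 held 304 and 325 counts.

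Counts were scaled with edgeR 4.0.16 (TMM, R 4.3.3), with 0.5 added counts for ratios. Counts of genes higher or lower cover differences of at least 2-fold, in genes with 50 or more counts in at least 1 library; smaller differences are given by their ratio and interval. There was 1 library per group, so no test was run. Intervals are exact 95% intervals (Clopper-Pearson, Poisson or conditional) of counts; PCR copies are not independent, so they cover counting error only. The scripts were tested on simulated data. The members and all lists (5 of pathway genes, 13 of cell type markers) were chosen with earlier results of these data known. One of the pathway lists is not reported here. Named were the 10 genes, every other family gene with 50 counts, and in each pathway list up to 4 genes past 2-fold, or the 2 most counted; a few genes beyond this rule, named for their tie to a listed gene, were chosen after their values were seen. No genes of similar pattern were named, because 2 libraries give 1 ratio per gene. Levels per length were computed as CPM per kb, not as TPM, so that they share the scaling of the ratios. Marker sums without the most counted gene of a list were added after seeing the data. Alternatives were other scalings (total counts, DESeq2 1.42.0, upper quartile, totals without the 100 most abundant and mitochondrially encoded genes), 5 added counts, other count minimums and other size limits.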

Additional observations from a re-analysis of the deposited data

How the results depend on the processing

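Plxna4, Plxnd1 and Nrp1 were at least 2-fold higher under 4 other scalings, with 5 added counts, and when the whole interval had to lie beyond 2-fold. Count minimums of 1, 10 and 200 could not change this, because each of the 3 had at least 474 counts with LPS+LCC-12. A 3-fold limit kept 1 higher member (Plxna4) and 0 lower. Plxnc1 was at least 2-fold lower under those scalings (log2 ratio -1.12 to -1.03), but with the whole interval beyond 2-fold 0 members and 0 family genes were lower. A 1.5-fold limit gave 2 lower members (Sema4d added) and 6 higher family genes (Plxna2, Plxna3 and Sema4b added). A 3-fold limit gave 1 higher and 0 lower family genes. Beside these, 9.67% of all genes were higher and 13.3% lower at 1.5-fold, and 1.45% and 2.52% at 3-fold. Lower family genes numbered 1 with 5 added counts or a minimum of 200, both without Sema5a, 6 with a minimum of 10 and 7 with a minimum of 1, where 7 were higher. Over all genes, the lower share was 6.30% with 5 added counts and 4.18%, 13.1% and 24.2% with minimums of 200, 10 and 1. The higher share with a minimum of 1 was 15.5%. The member median of 0.39 was 0.45 with totals without the 100 most abundant and mitochondrially encoded genes, and 0.35 to 0.42 under the other scalings. The ratio of each member kept its sign under each scaling and with 5 added counts; that of Plxna4 ran from 3.46 to 3.66. No scaling moved the median of all genes by over 0.1. The 2-fold counts over all genes moved by over 1.5 times with the minimum and the size limit. With a minimum of 1, 4143 of 26660 genes were higher and 6439 lower, and with a 3-fold limit 195 and 340 of 13482. They were 1462 and 2387 of 18219 with a minimum of 10, and 298 and 438 of 10468 with a minimum of 200. Of 13482 genes, they were 1304 and 1794 with a 1.5-fold limit, and 299 and 521 with the whole interval beyond 2-fold. No paired analysis was possible because each group had 1 library, and for the same reason no replicate could be left out.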

Other observations

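The plexin domain-containing gene Plxdc2, which is not a plexin and was looked up after its values were seen, had 2596 counts with LPS alone and 6829 with LPS+LCC-12. It was 2.72-fold higher, and 98.2% of genes had a lower ratio. Plxdc1 had 20 and 8 counts.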
